A study of Mus musculus with 6 samples.

Results

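The RNAs that came down in an anti-FLAG immunoprecipitation (IP) from cells with no FLAG-tagged protein were described in 1 littermate control mouse, as the IP library set against the input library of the same cells. Members were the genes with at least 10 FPKM in the control input, where FPKM counts fragments per kilobase of transcript, scaled to the mapped fragments of the library. Of the 54752 genes listed, 6320 (11.5%) passed, and they held 98.0% of the FPKM of the control input and 96.6% of that of the control IP. For each member the control log2 ratio was log2((IP + 1)/(input + 1)) with values in FPKM. The choice read the input and not the IP. Just inside it lay Dusp7, at 10.01 FPKM in the input and 12.5 in the IP, and Gm22786, at 10.01 and 0 FPKM. Just outside lay L3mbtl3, at 9.99 and 11.6 FPKM, and Ndrg1, at 9.99 and 17.8 FPKM.

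All cells were adult mouse bone marrow from hind limbs and sternum, freed of red cells and of adherent cells and then kept in culture with doxycycline (Dox) and 20 ng/mL of IL-7 for 5 days, which expands B cell progenitors. The control carried the Dox-dependent activator rtTA*m2 at Rosa26 and no tagged transgene. The tet-LIN28B mice, shown for comparison, carried the same Rosa26 rtTA*m2 and a Dox-induced, Flag-tagged human LIN28B cDNA at the Col1a locus, and gave the input and IP of replicates 1 and 2. The mice had been housed together, and Dox was present in the control culture as well. The labels give Dox at 0.1 mg/mL, whereas the methods of the study write the same figure in µg. With 1 control mouse and 1 culture, a control value has no replicate spread and no test, and a property of the control procedure cannot be told apart from one of that mouse.

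In an RNA immunoprecipitation, lysate is incubated with antibody on beads, the beads are washed, and the RNA that stays is extracted. Beads, antibody and plastic also hold some RNA and RNA-protein complexes when the target is missing, and the control IP measures that carryover. Long mRNAs with their ribosomes and proteins, transcripts enclosed in mitochondria and small RNAs of nuclear particles enter such a lysate as quite different objects. Because FPKM are shares of a library, a ratio above 0 on the log2 scale means that a transcript took a larger share of the IP than of the input. How much RNA was on the beads was not analysed here.

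The 6 libraries held 14200000 to 21200000 fragments by the step size of their low FPKM values, with 21200000 in the control input and 14600000 in the control IP. Of those low values, 86.5% to 89.0% lay within 0.15 of a whole number of fragments, against 30% by chance. A typical member of at least 300 nt rested on 1604 input fragments (median), and the counting error of its control log2 ratio was 0.06 (median) and 0.15 at the 95th percentile. Input and IP are swapped between the titles and the last line of the sample descriptions, and the titles, which match the column names, were followed. Of 16 B progenitor markers fixed for the check of the cell label, 15 reached 10 FPKM in the control input, among them Vpreb3 (6092 FPKM), Cd79a (1511 FPKM) and Pax5 (39.8 FPKM). Of the 20 myeloid markers, 9 also did, led by S100a9 (3335 FPKM) and S100a8 (2667 FPKM), so the culture was not of B lineage cells alone. In such a mixed culture, fewer cells of a type and less RNA per cell cannot be told apart.

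The control IP stayed close to its input for most transcripts. The control log2 ratio had a median of -0.04, quartiles of -0.35 and 0.29 and an SD over members of 0.65, and 77.2% of members lay within 1.5-fold of the input. In the tet-LIN28B mice the same members had SDs of 1.38 and 1.24, and 37.4% and 41.5% lay within 1.5-fold. Across members, log2 FPKM of the control IP correlated with that of the control input at r = 0.942, while the 3 inputs correlated with each other at 0.966 to 0.981, as descriptions over genes, which are not independent. The SD over the 3 inputs was 0.14 for the median member and 0.43 at the 95th percentile, which is smaller than a 2-fold ratio (1 on the log2 scale).

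At least 2-fold, 185 members (2.93%) were higher and 219 (3.47%) lower in the control IP than in its input. The tet-LIN28B IPs held 613 (9.7%) and 581 (9.19%) higher and 2109 (33.4%) and 1704 (27%) lower members. All 185 (2.93%) also lay above the highest of the 3 inputs, and 174 (2.75%) of the 219 below the lowest. When the libraries were scaled to TPM, which adds 0.27 to every control log2 ratio before the pseudocount, the split was 423 higher against 126 lower. The 185 were mostly protein-coding (155) and long, with a median length of 3983 nt against 2275 nt for all members. The 219 were short, with a median of 465.5 nt, and only 91 were protein-coding.

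**Figure D1:**
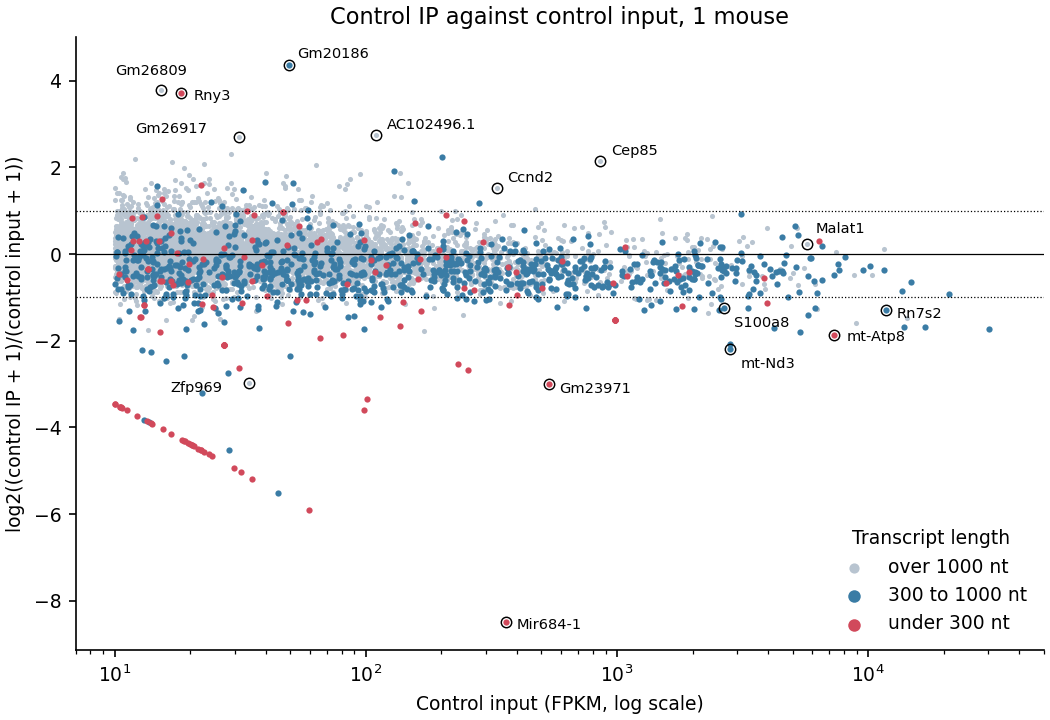
Each point is 1 of the members with a gene model, with the control input in FPKM on a log axis and the control log2 ratio of IP to input on the other axis, coloured by transcript length (under 300 nt, 300 to 1000 nt, over 1000 nt). Most points lie near 0, the lowest are mainly transcripts under 300 nt, and Cep85, at 858 FPKM in the input, lies at 2.15.

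The most abundant of the 185 higher members in the input was Cep85, which encodes a centrosomal protein. It was at 858 FPKM in the control input and 3813 FPKM in the control IP, a 4.44-fold ratio (log2 2.15). In the tet-LIN28B mice it was at 739 and 619 FPKM in the inputs and 461 and 567 FPKM in the IPs. The control IP thus stood above the other 5 libraries, which ran from 461 to 858 FPKM, and both tet-LIN28B ratios were below 0, at -0.68 and -0.13.

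Ccnd2, Cdk6 and Pou2f1 were also at least 2-fold above input in the control IP and in neither tet-LIN28B IP. Ccnd2, cyclin D2 of the G1 phase, was at 333 FPKM in the control input and 951 FPKM in the control IP (log2 1.51), whereas it went from 347 to 143 FPKM in tet-LIN28B replicate 1 and from 312 to 163 FPKM in replicate 2. Its kinase partner Cdk6 was at 22.6 FPKM in the control input and 72.7 FPKM in the control IP, with inputs of 19.1 and 20.2 FPKM and IPs of 16.1 and 17.6 FPKM in the tet-LIN28B mice. Pou2f1, the octamer-binding transcription factor Oct-1, was at 18.9 FPKM in the control input and 77.7 FPKM in the control IP, against 24.3 and 15.5 FPKM in tet-LIN28B replicate 1 and 23.6 and 29.3 FPKM in replicate 2. For Ccnd2 and Cdk6 the control IP was the highest and the tet-LIN28B IPs the lowest of the 6 values. Other members of their lists stood above input in all 3 mice, with log2 ratios of 1.65, 1.19 and 1.43 for E2f2, a transcription factor of the cell cycle, and of 1.51, 0.93 and 0.78 for Bach2, a repressor of B cell differentiation. The antisense RNA Gm43126 had a control log2 ratio of 2.24, but 86.7% of its exon sequence overlaps Ccnd2 on the other strand. The library kit does not mark strand, so reads of Gm43126 and of Ccnd2 cannot be told apart.

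Ezr, which links the membrane to actin, and Eif4ebp2, a repressor of the cap-binding factor eIF4E, showed the split between control and tet-LIN28B mice at lower levels. Ezr had log2 ratios of 1.64 in the control and -0.40 and 0.19 in the tet-LIN28B mice. Eif4ebp2 had 1.53 in the control and -0.79 and -0.44 in the tet-LIN28B mice. In 6 of the 185 the tet-LIN28B IPs were at least 2-fold below their inputs in both mice, namely AC102496.1, Gm43305, Akt1s1, Csrp1, Gm26880 and Gm4316, of which only Akt1s1 (an inhibitor of mTORC1) and Csrp1 (a LIM protein) are protein-coding. Of all members, 33.4% were at least 2-fold lower in tet-LIN28B replicate 1 and 27% in replicate 2.

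A different set came down with and without the tagged protein. Of the 185, 68 were at least 2-fold higher than input in both tet-LIN28B mice as well, 24 in 1 of them and 93 in neither. Of all members, 9.7% were at least 2-fold higher in tet-LIN28B replicate 1 and 9.19% in replicate 2. Odc1, ornithine decarboxylase of polyamine synthesis, was at 86.1 FPKM in the control input and 287 FPKM in the control IP, at 91.1 and 379 FPKM in tet-LIN28B replicate 1, and at 95.5 and 366 FPKM in replicate 2. All 3 IPs of Odc1 lay above all 3 inputs, with log2 ratios of 1.72, 2.04 and 1.93. As 52.0% of the Odc1 sequence is shared with other genes, its level is uncertain. Other polyamine genes, named after their values were seen, had like ratios, with 1.87, 1.59 and 1.44 for Amd1 (adenosylmethionine decarboxylase, which shares 92.3% of its sequence with a copy, so its level is uncertain) and 2.50-fold, 2.37-fold and 3.76-fold over input for Azin1 (the antizyme inhibitor).

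Eif4b, a helper of the initiation helicase, was at 48.3 FPKM in the control input and 171 FPKM in the control IP, at 48.5 and 132 FPKM in tet-LIN28B replicate 1, and at 50.8 and 144 FPKM in replicate 2. Zfp106, a zinc finger protein that binds RNA, had log2 ratios of 2.13, 2.07 and 1.70 in the control and the tet-LIN28B mice. For Polr3g, a subunit of RNA polymerase III, the ratios were 1.87, 2.52 and 2.58, and for Rragd, a GTPase that signals to mTORC1, they were 1.72, 2.45 and 2.47. The 3 mice thus had IPs above inputs for each of these mRNAs, and the control ratio was the lowest of the 3 for Odc1, Polr3g and Rragd and the highest for Eif4b and Zfp106. Cdv3, Larp4b, N4bp2 and Nucks1 had control log2 ratios of 1.87, 1.73, 2.08 and 1.51, each with both tet-LIN28B ratios above 1.

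**Figure D2:**
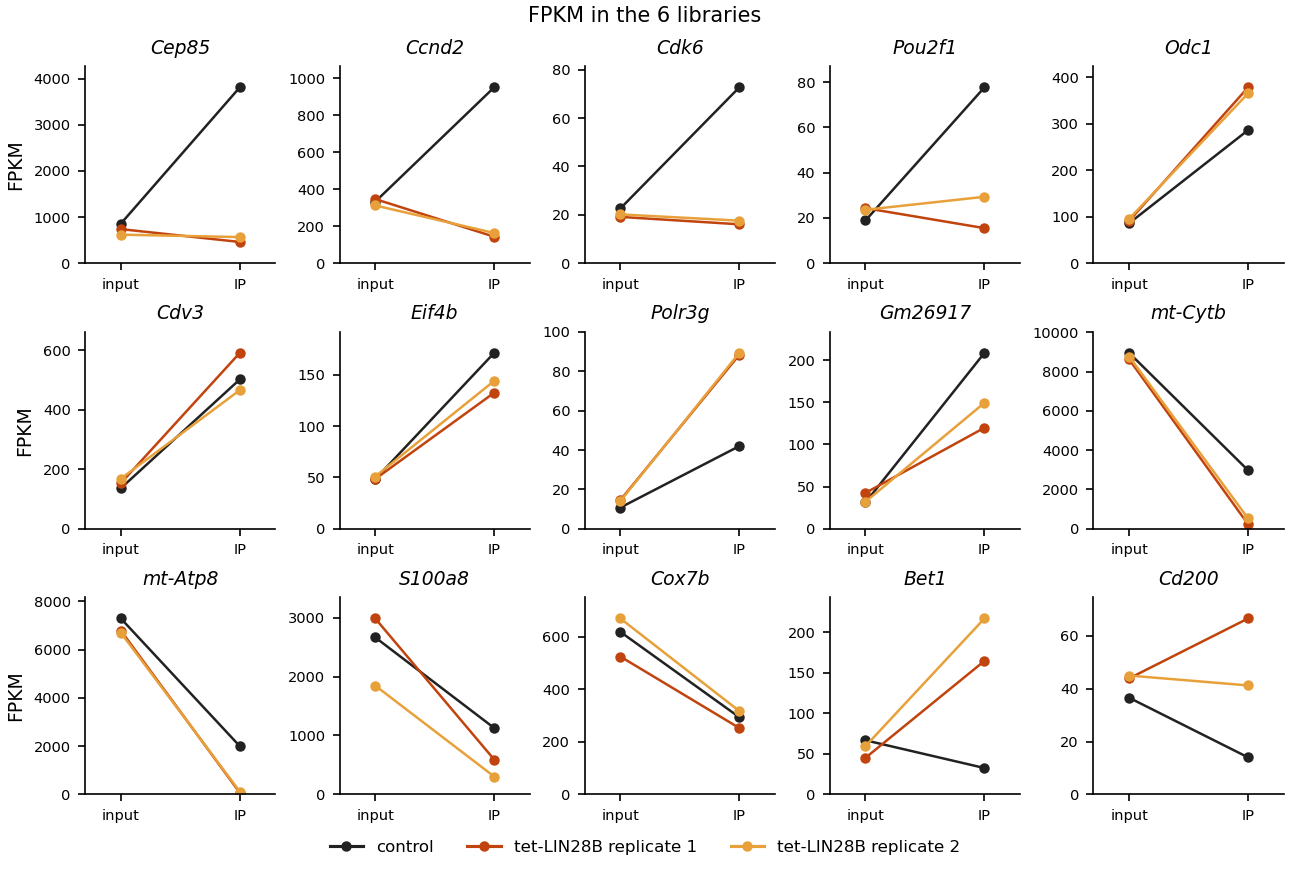
FPKM of 15 transcripts in the input and IP of the control and of both tet-LIN28B mice, 1 point for each library. Odc1, Cdv3, Eif4b and Polr3g have IPs above inputs in all 3 mice, Cep85, Ccnd2 and Cdk6 only in the control, and mt-Cytb, mt-Atp8, S100a8 and Cox7b have IPs below inputs in all 3.

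The noncoding end of the high ratios was led by an overlapping pair on chromosome 6. Gm20186 was at 49.3 FPKM in the control input and 1039 FPKM in the control IP, and at log2 ratios in the tet-LIN28B mice of 0.72 and 2.04. Gm26809, on the opposite strand, was at 15.2 and 224 FPKM in the control and at log2 ratios in the tet-LIN28B mice of 0.51 and 1.68. Both genes had their highest IP value in the control, at 21.1-fold and 14.7-fold over input, and where they overlap, over 81.4% of the exons of Gm20186 and 28.7% of those of Gm26809, reads cannot be told apart without strand. Gm26917, a noncoding RNA on chromosome 17 (39843013 to 39846341 of GRCm38), was at 31.2 FPKM in the control input and 208 FPKM in the control IP, with log2 ratios in the tet-LIN28B mice of 1.47 and 2.19. Its neighbour Gm42418 (39846958 to 39848788) and the ribosomal RNA locus CT010467.1 had control log2 ratios of only 0.48 and 0.12, from input levels of 1511 and 11541 FPKM, but 99.5% of the Gm42418 exons overlap CT010467.1 and AY036118 on the other strand, so these are not separate values. Tsix, with 32.6% of its exons under other genes including Xist on the other strand, was at 1.19 on this scale, and the nuclear RNAs Malat1 and Neat1 at 0.24 and -0.65.

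Transcripts made inside mitochondria took a smaller share of the control IP than of its input. All 13 mitochondrially encoded mRNAs lay below the members' median and 12 were at least 2-fold lower in the control IP, against 3.47% of all members, with a median control log2 ratio of -1.40. Their summed share of the library was 5.58% of FPKM in the control input and 2.34% in the control IP. With the tagged protein the share went from 6.29% to 0.28% in tet-LIN28B replicate 1 and from 5.96% to 0.44% in replicate 2, and the medians were -4.58 and -3.86. These shares leave out abundant pseudogenes on chromosome 1 whose sequence is nearly all shared with other genes. Among them Gm28437 (100% shared) was at 30362 FPKM in the control input and 9099 FPKM in the control IP. Gm29216 (97.2% shared) was at 21031 and 11077 FPKM. Whether their reads came from mitochondrial RNA was not tested. The mRNA of cytochrome b, mt-Cytb, was at 8948 FPKM in the control input and 2974 FPKM in the control IP, at 8618 and 232 FPKM in tet-LIN28B replicate 1 and at 8764 and 525 FPKM in replicate 2. The 3 inputs were nearly level, and the control IP lay between them and the tet-LIN28B IPs.

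Within the set the control log2 ratio ran from -2.19 for mt-Nd3 to -0.97 for mt-Nd6, the only one not past 2-fold. mt-Nd6 is the only mitochondrial mRNA that is transcribed from the other strand. mt-Atp8, a subunit of ATP synthase, was at 7295 FPKM in the control input and 1998 FPKM in the control IP, whereas it went from 6794 to 66.1 FPKM and from 6704 to 116 FPKM in the tet-LIN28B mice. Other genes share 98.1% of the sequence of mt-Nd3 and 7.47% of that of mt-Atp8, which overlaps mt-Atp6. The split of reads between such genes is uncertain, but mt-Nd1, with no shared sequence, had a ratio of -1.40. The mitochondrial rRNAs mt-Rnr2 and mt-Rnr1 were at -1.47 and -1.27 in the control. For mt-Rnr1 the tet-LIN28B ratios were 0.08 and -1.09, so its order between mice was not that of the mRNAs.

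Nuclear-encoded mRNAs for mitochondrial proteins were lower to a smaller degree. Of 78 oxidative phosphorylation genes, 70 lay below the members' median, with a median of -0.38, and 3 (3.85%) were past 2-fold, a share near the 3.47% of all members. Cox7b, a subunit of cytochrome c oxidase, was the lowest, at 618 FPKM in the control input and 293 FPKM in the control IP, and its ratios in the 3 mice were -1.07, -1.05 and -1.08. The 77 mitochondrial ribosomal protein genes had a median of -0.35, 63 of them below the members' median and 0 past 2-fold. These mRNAs are short, and against members of the same length class the medians were -0.08 for oxidative phosphorylation and -0.15 for mitochondrial ribosomal proteins.

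Histone mRNAs of the replication-dependent kind, which end in a stem-loop in place of a poly(A) tail, had a median of -0.83. Of the 49 that passed the input level, 18 (36.7%) were at least 2-fold lower, against 3.47% of all members. Among all members of up to 600 nt the share was 23.9%, and the histones had a median length of 528 nt. The most abundant, Hist1h2ap, was at 14837 FPKM in the control input and 9435 FPKM in the control IP, and went from 10760 to 557 FPKM and from 13503 to 1156 FPKM in the tet-LIN28B mice. The range over the 49 was -2.46 to 0.53 in the control. Against members of the same length the median was -0.34, with 39 of 49 below. Hist1h2ap shares 93.4% of its sequence with other genes, as copies of this family do, so single values are uncertain.

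Cytosolic ribosomal protein mRNAs held 20.9% of the FPKM of the control input and 22.9% of the control IP, where the tet-LIN28B IPs held 32.6% and 30.1% from inputs of 21.4% and 21.2%. None of the 79 was past 2-fold in the control, with a median control log2 ratio of -0.19 and a range from -0.99 for Rpl39 to 0.93 for Rps6 (84.9% of its sequence shared with copies, so its level is uncertain). Among members of the same length 55 of the 79 were above the class median, by 0.16 at the median, and by 1.08 and 0.79 in the tet-LIN28B mice. Under TPM scaling the control median turned above 0, since that scaling adds about 0.27.

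At the high end, mRNAs for giant nuclear and cytoskeletal proteins had a median of 0.50, with 30 of 33 above the members' median and 5 (15.2%, against 2.93% of all members) past 2-fold. Crebbp, a histone acetyltransferase, was at 53.8 FPKM in the control input and 154 FPKM in the control IP, and went from 58.8 to 141 FPKM and from 60.8 to 181 FPKM in the tet-LIN28B mice. Against members of the same length class the median of these genes was 0.18. B lineage transcription factors had a median of 0.37, with 25 of 33 above the members' median and Pou2f1 and Bach2 past 2-fold, and their median was 0.17 against the same length class. Of 46 translation factors, 6 were past 2-fold upwards, against 2.93% of all members, although their median was -0.01. hnRNP proteins, which package nuclear RNA, had a control median of -0.05 where the tet-LIN28B medians were 0.59 and 0.43.

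**Figure D3:**
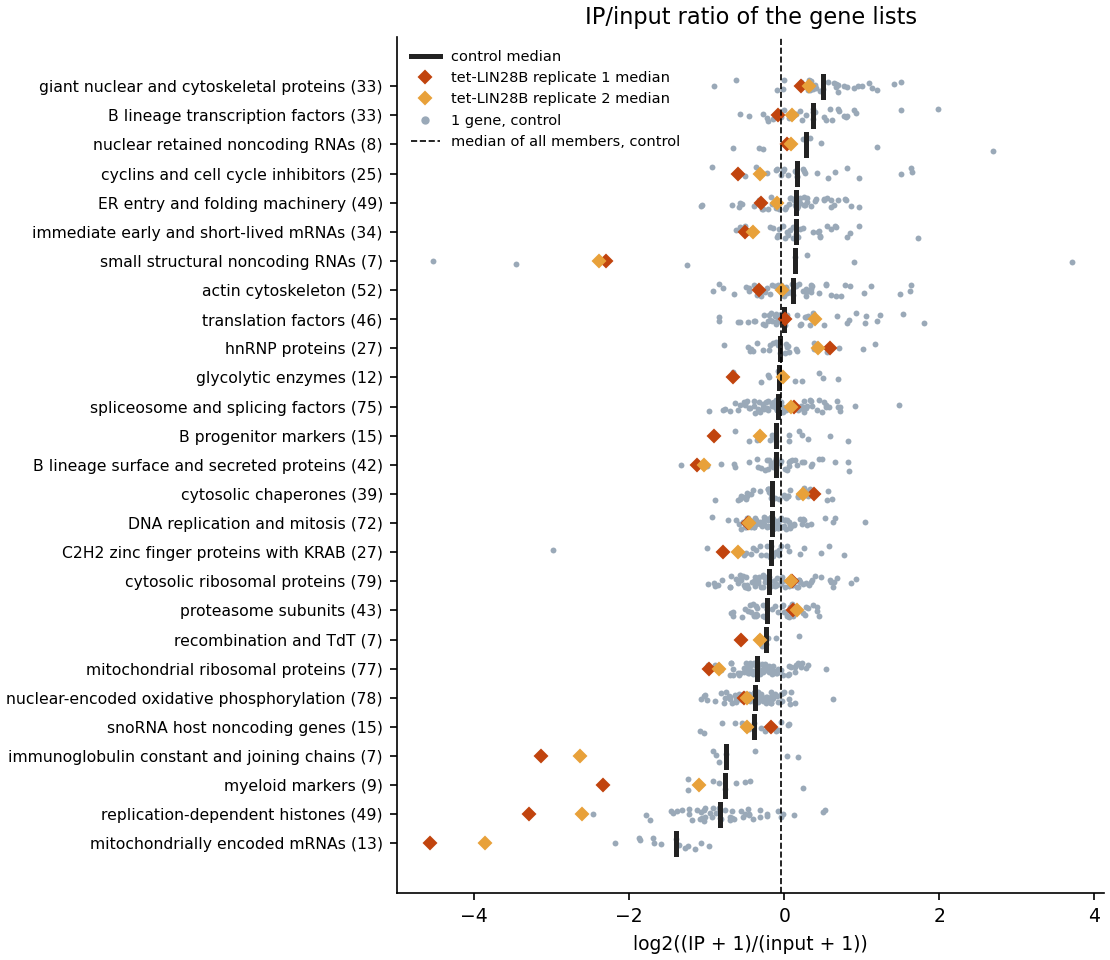
Control log2 ratio of IP to input for the members of 27 gene lists with at least 7 members, with grey points for genes and marks for the median of the control and of each tet-LIN28B mouse. Mitochondrially encoded mRNAs lie lowest with a control median of -1.40, histones follow at -0.83, and giant nuclear and cytoskeletal proteins lie highest at 0.50.

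The control ratio was higher the longer the class of transcripts. The median control log2 ratio was -0.51 up to 600 nt (515 genes), -0.39 from 600 to 1000 nt (525), -0.20 from 1000 to 1500 nt (821) and -0.04 from 1500 to 2500 nt (1568). It was 0.09 from 2500 to 4000 nt (1596), 0.20 from 4000 to 6000 nt (836) and 0.32 over 6000 nt (426). The share at least 2-fold lower was 23.9% in the shortest class and 0.70% in the longest, and the share at least 2-fold higher was 2.33% and 8.92%. Across the 6287 members with 1 gene model, length and the control log2 ratio correlated at rho = 0.43 (r = 0.47), and at rho = 0.33 and 0.37 in the tet-LIN28B mice, as descriptions over genes that share libraries.

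The order was also present within levels of input, though not steadily among the most abundant. Among protein-coding members of 10 to 30 FPKM the medians ran from -0.32 up to 600 nt (18 genes) to 0.36 over 6000 nt (273), and among those of 30 to 100 FPKM from -0.88 (32) to 0.28 (118). Over 100 FPKM they ran from -0.52 (80) to 0.07 (27), with -0.04 from 2500 to 4000 nt and -0.10 from 4000 to 6000 nt. Since the input level that chose the members is also the denominator, the medians were taken again with the mean of both tet-LIN28B inputs in both places, as an alternative added after the data were seen, and ran from -0.38 to 0.24 with rho = 0.32.

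**Figure D4:**
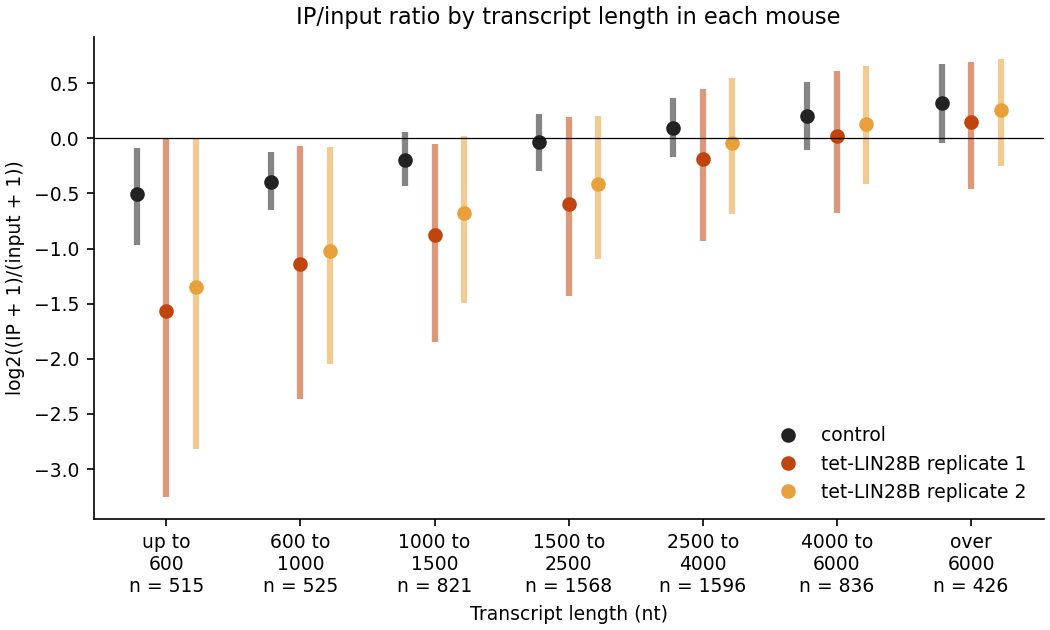
Median log2 ratio of IP to input in 7 classes of transcript length for the control and for each tet-LIN28B mouse, with bars from the lower to the upper quartile. The control medians go from -0.51 in the shortest to 0.32 in the longest class, and those of both tet-LIN28B mice from -1.57 and -1.35 to 0.15 and 0.25.

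Coding length and 3′ UTR length of 5635 protein-coding members followed the ratio at rho = 0.33 and 0.34, and with total length held fixed both were at 0.08 or below. With length held fixed, GC content followed the control ratio at rho = 0.28 and the tet-LIN28B ratios at -0.20 and -0.10. The signs also differed, at smaller sizes, for the number of AU-rich ATTTA pentamers in the 3′ UTR (-0.10 against 0.10 and 0.04) and for the control input level (-0.12 against 0.08 and 0.05). For protein-coding members over 2500 nt, the control median was 0.00 at up to 42% GC (449 genes) and 0.30 over 54% GC (462 genes). The tet-LIN28B medians went the other way over the same classes, from 0.15 to -0.41 in replicate 1 and from 0.11 to -0.09 in replicate 2.

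The libraries were primed on poly(A), so runs of A inside transcripts were counted. A run of at least 12 A was present in 8.89% of the 6287 members, in 17.8% of the 185 higher ones and in 1.92% of the 208 lower ones that have a gene model. Long transcripts hold more such runs (28.6% over 6000 nt), and within that class the median control log2 ratio was 0.43 with a run and 0.28 without. Every other length class had that order too, except 1000 to 1500 nt, at -0.33 with a run (23 genes) and -0.19 without.

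Small structural RNAs supplied both the lowest values and 1 of the highest. Of the 138 members under 300 nt, 69 were at least 2-fold lower and 3 higher in the control IP, against 3.47% and 2.93% of all members. By class, 17 of 24 snRNAs, 16 of 28 snoRNAs and 16 of 26 miRNA precursors were at least 2-fold lower, with medians of -2.11, -1.17 and -1.48. Genes listed with the same values were counted separately. Rnu1a1, Gm22068, Gm22634, Gm23804 and Gm26444 all stood at 27.2 FPKM in the control input and 5.53 FPKM in the control IP (log2 -2.11). 40 members were listed at 0 in the control IP, 32 of them under 300 nt, and 24 of the 40 were also listed at 0 in at least 1 tet-LIN28B input. The snRNAs and snoRNAs have no poly(A) tail, and many of the members under 300 nt rest on few reads. Not all of the 40 do, as Gm6565, a processed pseudogene of 438 nt with 100% shared sequence, had about 189 input fragments. For lengths of 85 to 171 nt the worth of 1 fragment in the control input was read from the falling lower edge of the values above 0 among genes with no shared sequence and no overlapping exon. On that scale 51 of the 89 short members of such lengths were at about 3 or fewer input fragments, 16 of them at about 1, and 36 of the 51 lay within 0.15 of a whole number.

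The input value that chose the members is also the denominator of the ratio, and for these short RNAs the medians moved with that choice. With the mean of both tet-LIN28B inputs as the filter and the control input still as the denominator, the medians were -0.11 for snRNAs (27), 0.00 for snoRNAs (39) and 0.00 for miRNA precursors (35). Of these genes 10, 15 and 13 were at 0 in the control input and 8, 15 and 14 in the control IP. A gene at 0 in both has a ratio of 0. Of 176 genes under 300 nt chosen in that way, 44 were lower and 27 higher. With the tet-LIN28B inputs also as the denominator, the 3 medians were -1.62, -1.73 and -1.62, and 102 of the 176 were lower and 14 higher. With all 3 inputs at 10 FPKM or more and the control input as the denominator, which leaves 85, the counts were 33 lower and 0 higher, with a median of -0.65. Of the 89, the 13 at over 30 input fragments had a median of -1.52, and 8 of them were at least 2-fold lower and 0 higher. The 8 are not separate values. Gm44314, Gm44350, Gm44394, Gm44466 and Gm44486 all stood at 979 FPKM in the control input and 342 FPKM in the control IP, the ratio at that median. Gm44466 overlaps the histone gene Hist1h2ap on the other strand, over 28.6% of the Hist1h2ap exons. Gm44390 and Gm44492 overlap histone genes on the other strand over 100% of their exons, so their reads cannot be told apart from histone reads. The same holds for Gm44297, which overlaps Hist1h2af and is not among the 8. Gm44390, Gm44492 and Gm44297 are all counted with the lower miRNA precursors. The same 13 mitochondrial mRNAs passed either filter, so their median of -1.40 could not change with it. For histones the median was -0.79 (50 genes) when the tet-LIN28B inputs chose the genes. With those inputs also as the denominator, the medians were -1.51 for mitochondrial mRNAs and -0.56 for histones, with 13 and 11 genes at least 2-fold lower.

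Short RNAs from both ends of the range are printed below with the longest run of A in capitals (the first where several tie), to show what a poly(A)-primed library had to work with. The longest run was of 2 to 5 A in each. Rny3 and Rny1 are Y RNAs that bind the Ro60 protein, Rnu11 is the U11 snRNA of the minor spliceosome, Gm24507 is annotated as a snoRNA and Gm24289 as a Cajal body RNA. Sequences are from GENCODE M21 on GRCm38, 5′ to 3′, and lie at chr6:47781624-47781725 on the plus strand for Rny3, chr6:47788069-47788180 on the minus strand for Rny1, chr4:132270080-132270213 on the minus strand for Rnu11, chr13:90098981-90099114 on the plus strand for Gm24507 and chr9:64295931-64296065 on the plus strand for Gm24289.
Rny3: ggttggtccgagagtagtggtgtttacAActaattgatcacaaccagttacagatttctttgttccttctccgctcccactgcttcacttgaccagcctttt
Rny1: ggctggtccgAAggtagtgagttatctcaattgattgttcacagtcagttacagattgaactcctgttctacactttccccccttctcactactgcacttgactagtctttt
Rnu11: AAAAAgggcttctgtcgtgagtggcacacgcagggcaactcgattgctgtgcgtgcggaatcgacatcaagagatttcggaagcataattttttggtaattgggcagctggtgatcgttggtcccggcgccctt
Gm24507: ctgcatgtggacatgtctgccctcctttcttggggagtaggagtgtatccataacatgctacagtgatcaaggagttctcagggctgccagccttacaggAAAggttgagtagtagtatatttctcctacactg
Gm24289: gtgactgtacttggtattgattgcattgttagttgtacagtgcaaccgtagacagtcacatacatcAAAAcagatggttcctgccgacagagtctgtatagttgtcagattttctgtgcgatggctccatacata

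Rny3 (102 nt) was at 18.3 FPKM in the control input and 251 FPKM in the control IP, at 12.9 and 0 FPKM in tet-LIN28B replicate 1, and at 0 and 22.8 FPKM in replicate 2. Its control log2 ratio of 3.71 rests on about 1 input fragment, and the direction differed between the tet-LIN28B mice. Rny1 was at 13.3 FPKM in the control input, also about 1 fragment, and at 16.6 FPKM in the control IP. Rnu11 and Gm24507, both 134 nt long, were at 22.1 FPKM in the control input, or about 3 fragments, and at 0 in the control IP. All of the Rnu11 sequence overlaps Gm28872 on the other strand. Gm24289 was at 101 FPKM in the control input and 9.03 FPKM in the control IP, from about 14 input fragments, with log2 ratios of -3.34, -1.98 and -3.32 in the 3 mice.

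Abundant structural RNAs rested on more fragments, but most of their sequence is shared with copies or other genes, so their levels are uncertain, and they were named after their values were seen. Rn7s2, a copy of the 7SL RNA of the signal recognition particle, was at 11809 FPKM in the control input and 4832 FPKM in the control IP, and went from 26981 to 539 FPKM and from 14039 to 784 FPKM in the tet-LIN28B mice. Rpph1, the RNA of RNase P, was at 754 FPKM in the control input and 315 FPKM in the control IP, and at 2162 and 43.7 FPKM and at 1882 and 33.4 FPKM in the tet-LIN28B mice. Both were lower in every IP than in its input, though 73.0% of the Rpph1 exon overlaps Ccnb1ip1 on the same strand and 70.2% of its sequence is shared. Rn7sk, which holds the elongation factor P-TEFb, was level in the control, at 284 and 313 FPKM, and had log2 ratios in the tet-LIN28B mice of -1.85 and -1.88, with 72.8% of its sequence shared. Rn7s1, a near-identical copy of Rn7s2, had a control log2 ratio of -0.20, so the split between the copies is uncertain, and the copies summed had -0.89.

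Few protein-coding transcripts were at least 2-fold lower in the control IP, 91 of 5635 (1.61%). Of the 219 lower members, 106 share over 50% of their sequence with other genes, 69 are under 300 nt, and 57 are protein-coding, at least 300 nt long and not shared to that degree. The 57 still hold genes of the groups above, such as mt-Cytb, mt-Nd1, Hist1h2bp and Cox7b. Among the 57, and named after their values were seen, Nup188, a scaffold protein of the nuclear pore, was at 21.6 FPKM in the control input and 8.19 FPKM in the control IP, with log2 ratios of -1.30, -2.05 and -1.51 in the 3 mice. Tyw5, a tRNA-modifying enzyme, had ratios of -1.44, -1.50 and -1.01, and Klhdc1 of -1.51, -1.29 and -2.36. These mRNAs were at least 2-fold lower in the IPs of all 3 mice. Dus4l, a tRNA dihydrouridine synthase, was the lowest of those named, at 13.5 FPKM in the control input and 3.31 FPKM in the control IP.

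Transcripts of other cells in the culture did not share 1 behaviour. The 9 myeloid markers that passed had a median control log2 ratio of -0.77, with 8 below the members' median, and their summed share, over all 20 listed, was 0.50% of FPKM in the control input and 0.27% in the control IP. S100a8 was at 2667 FPKM in the control input and 1127 FPKM in the control IP, and S100a9 at 3335 and 1415 FPKM; these neutrophil proteins have short mRNAs, and the list lay 0.45 below its length class. The 4 erythroid and megakaryocyte markers lay between 0.04 and 0.29, and basophil Mcpt8 and Prss34 were at 0.66 and 0.86. The 2 stromal genes that passed, Spp1 and Pecam1, were at -0.23 and -0.14, the 4 T and NK genes ran from -0.95 to 0.70, and the 4 dendritic cell genes from -0.39 to 0.71.

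Among B cell products, the immunoglobulin constant genes had a control median of -0.75, with Igkc, the kappa light chain, at 5305 FPKM in the input and 2883 FPKM in the IP. Ighm, the mu heavy chain, was level in the control, at 1984 and 2236 FPKM, and went from 1392 to 157 FPKM and from 1650 to 265 FPKM in the tet-LIN28B mice. Cd200, a surface glycoprotein, was the lowest of the B lineage surface genes, at 36.6 FPKM in the control input and 14.0 FPKM in the control IP, with tet-LIN28B ratios of 0.59 and -0.12.

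The last comparison asks for which transcripts the control ratio differed from that with the tagged protein. It used limma on the log2 ratio of each mouse with genotype as the factor, which assumes that the lone control varies like the tet-LIN28B mice, and it has 1 residual degree of freedom. The labels call the samples biological replicates, but the text of the study calls the tet-LIN28B samples technical in 1 place and biological in others, so p-values measure only the spread between these samples. At an adjusted p below 0.05, the ratio was higher in the control for 1072 members (17%) and lower for 289 (4.57%). These calls depended on the setting. With control input of at least 1 FPKM as the filter 0 members passed limma in either direction (2846 higher and 884 lower at an unadjusted p below 0.05), and with no replicate block 112 and 18 passed. With each mouse centred on its median the split was 1001 against 682, and under TPM scaling 1280 against 208. Of the 185 members at least 2-fold higher in the control IP, 34 were called higher and 1 lower than in the tet-LIN28B mice. Of the 219 lower ones, 62 were called higher and 34 lower. Over members, the log2 ratios of both tet-LIN28B mice correlated with each other at r = 0.89, and with that of the control at 0.41 and 0.44.

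At the filter of 10 FPKM, and not at that of 1 FPKM, Cep85 differed by 2.56 on the log2 scale (SE 0.35, limma adjusted p = 0.014), Ccnd2 by 2.61 (SE 0.30, limma adjusted p = 0.013), Cdk6 by 1.85 (limma adjusted p = 0.019) and Pou2f1 by 2.14 (limma adjusted p = 0.029). Odc1 was 0.26 lower in the control (limma adjusted p = 0.51), and neither Eif4b (limma adjusted p = 0.39) nor Polr3g (limma adjusted p = 0.15) passed. Other calls were of transcripts that were nearly level in the control and low in the tet-LIN28B IPs. Pfn1, the actin-binding profilin, had a control log2 ratio of -0.30 against -3.98 and -3.47, a difference of 3.43 (limma adjusted p = 0.013), and Ighm differed by 3.06 (limma adjusted p = 0.013). In the other direction stood Bet1, a SNARE of transport from the ER to the Golgi, at 66.6 and 32.4 FPKM in the control and at log2 ratios of -1.02 in the control and 1.85 in both tet-LIN28B mice, a difference of -2.86 (limma adjusted p = 0.013).

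**Figure D5:**
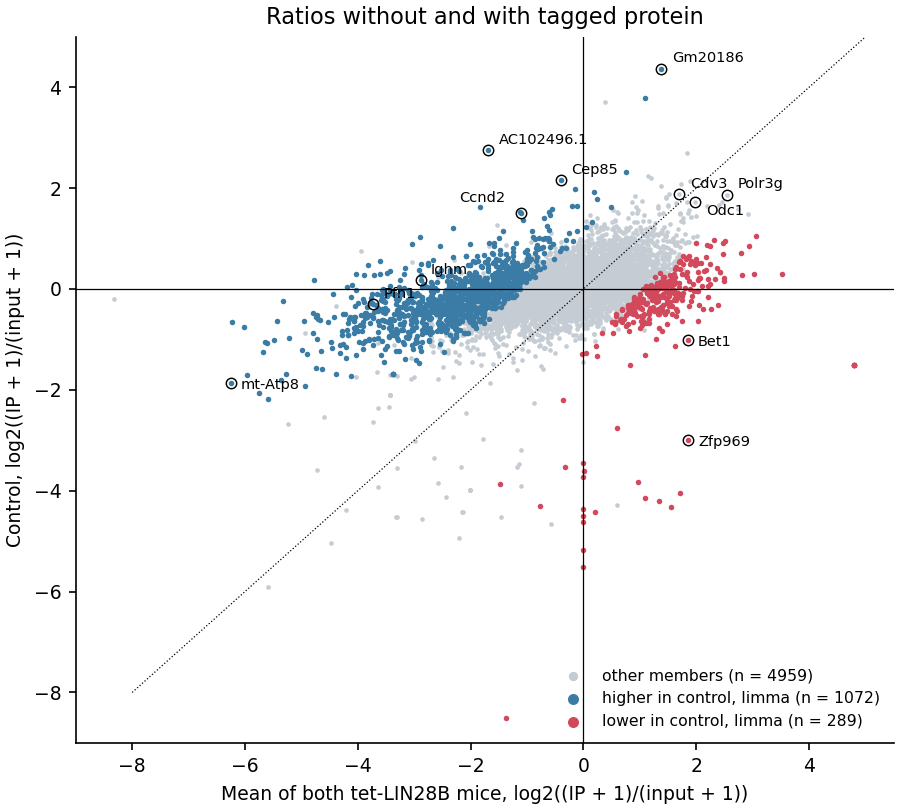
Control log2 ratio of IP to input against the mean of both tet-LIN28B mice for all 6320 members, coloured by the limma call for the difference (1072 higher in the control, 289 lower, 4959 neither). The cloud is wider along the tet-LIN28B axis than along the control axis, and Cep85 and Ccnd2 lie apart with control ratios above 1.5 and tet-LIN28B means below 0.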

How the data were processed

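RNA was measured in the anti-FLAG IP and the input of 1 littermate control and 2 tet-LIN28B mice (Magna RIP kit, SMART-Seq v4 cDNA, Nextera XT libraries). The submitters' processing notes name STAR 2.7.1, RSEM 1.28 and mm10, and the authors deposited FPKM values, 1 column for each of the 6 libraries and no counts. The gene models the authors used are not given in the sources used here. No pair of libraries held identical values.

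Python 3.11.15 and R 4.3.3 were used. Gene class, position, length, GC content and shared 31-mers are from GENCODE M21, which matched 6287 of the 6320 members to 1 model. Of the others 18 had none (6 symbols had been turned into dates) and 15 had several. Length is that of the longest transcript, or of the longest coding transcript for protein-coding genes. FPKM are shares of a library and sum to between 1144868 and 1384941, so the ratio moves with that sum, and poly(A) priming limits what is said of RNAs without a tail. Fragments were estimated from the steps between low FPKM values for genes of at least 300 nt, and all intervals cover counting error only.

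The control ratio has no test. limma 3.58.1 was fitted to the log2 ratio of each mouse with genotype as the factor and a trend on mean expression, with Benjamini-Hochberg adjustment over the 6320 members and a threshold of 0.05. The replicate number pairs the IP and the input of 1 mouse, and over members the difference between tet-LIN28B replicates 1 and 2 in the inputs correlated with that in the IPs at 0.208. On simulated data where the spread followed mean expression, the fit recovered part of the smaller changes and nearly all of the larger ones, with some unchanged genes called too. Where the spread differed from gene to gene, it made no calls. The members and the 33 gene lists were chosen with earlier results of these data known, and lists are described by counts and medians alone.

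Genes named were the 10 highest and 10 lowest ratios, the same among members of at least 100 FPKM, the 5 highest and lowest not protein-coding, the 5 most abundant, the 2 highest and lowest of each list, and Lin28b, Malat1, Neat1, Xist, Odc1, Ccnd2 and Pfn1, not all of which are printed. The polyamine, Y, 7SL, 7SK and RNase P RNA genes other than Odc1 and Rny3, the mitochondrial mRNAs other than mt-Nd3, mt-Atp8, mt-Nd5 and mt-Nd6, and Polr3g, Rragd, Larp4b, N4bp2, Nucks1, Akt1s1, Csrp1, Gm26880, Gm4316, Gm42418, CT010467.1, Nup188, Tyw5, Klhdc1, Dus4l and Bet1 were added after their values were seen, as was the scale of 1 fragment for short RNAs. Alternatives changed the filter, the library it reads, the pseudocount, the scaling, the denominator, the length measure, the classes and the replicate block. Western blots and other assays of the study were not analysed here.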

Additional observations from a re-analysis of the deposited data

Results flagged for a closer look

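The results below were picked because the IP/input ratio differed between the control and the tet-LIN28B mice by limma's test of the difference, at an adjusted p below 0.05. The lone control has no spread of its own in that test.

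Over all members the ratio was higher in the control for 1072 and lower for 289. Among transcripts that were over-represented in the control IP, the control minus tet-LIN28B log2 ratio was 2.56 for Cep85, 2.61 for Ccnd2, 1.85 for Cdk6, 2.14 for Pou2f1, 1.75 for Ezr and 2.14 for Eif4ebp2. It was 4.43 for the noncoding AC102496.1, 3.46 for Gm43305 and 2.59 for Srrm2, a protein of splicing speckles.

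Among transcripts near or below their input level in the control, the difference was 3.06 for Ighm, 3.43 for Pfn1, 4.39 for mt-Atp8 and 3.41 for mt-Nd3. It was negative for Zfp969 (-4.85), whose sequence is wholly shared with other genes, for Bet1 (-2.86) and for Cd200 (-1.56).

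With only control input values of at least 1 FPKM required, 0 members passed limma in either direction, with 2846 higher and 884 lower at an unadjusted p below 0.05, so none of these calls was kept there.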

How the results depend on the processing

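Counts past 2-fold moved with the filter and the scaling. At least 1 FPKM in the control input gave 535 higher and 527 lower, at least 50 FPKM gave 41 and 97, a mean of control input and IP of at least 10 FPKM gave 348 higher, TPM gave 423 and 126, and protein-coding genes alone gave 91 lower. The length relation was rho = 0.29 with the tet-LIN28B inputs as the denominator, 0.28 with median transcript length, and 0.32 with the tet-LIN28B inputs as filter and denominator. Relative to all members, the median at 50 FPKM or more was -1.21 for mitochondrially encoded mRNAs, -0.64 for histones, -0.00601 for cytosolic ribosomal proteins, -0.20 for oxidative phosphorylation and 1.69 for giant proteins, where 1 gene was left. Against the same length class, an alternative added after the data were seen, these medians were -1.24, -0.34, 0.16, -0.0786 and 0.18, and with the tet-LIN28B inputs as the denominator the first was -1.56. Relative to all members, the snoRNA and miRNA precursor medians turned to 0.0138 when the mean of the tet-LIN28B inputs chose the genes. Of the genes so chosen, 15 of 39 snoRNAs and 13 of 35 miRNA precursors were at 0 in the control input. For limma, at least 1 FPKM gave 0 higher and 0 lower, a pseudocount of 0.1 gave 459 and 97, centring gave 682 lower, and no replicate block gave 112 and 18. With 1 tet-LIN28B mouse left no limma test was possible. Of 101 named genes past 2-fold, 25 were within 2-fold under at least 1 of 5 settings, 14 of them under TPM. Depth limits RNAs under 300 nt.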
